A study of Mus musculus with 8 samples.

Results

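Control muscle stem cells are described here from the 4 libraries whose titles carry the WT label, out of 8 libraries in the series. These are control replicates 2, 5, 7 and 8, each given as genotype WT and cell type muscle stem cells; the other 4 libraries, from cells with 1 floxed RhoA allele, enter no value below. Per the series text, the cells came from control mice and were purified by flow cytometry straight after isolation, without culture. The labels do not give the strain, age, sex or muscle, the antibodies of the sort, or whether the control mice carried a Cre or a floxed allele, and they do not say that the libraries came from separate animals, so the spread between libraries may be partly technical. Levels are in TPM, a relative transcript abundance that divides each gene's fragments by its length and scales each library to the same total, so levels can be compared between genes.

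Muscle stem cells, also called satellite cells, lie between the muscle fibre and its basement membrane. In resting muscle they are quiescent and are marked by the transcription factor Pax7; after injury they switch on MyoD, divide and fuse into new fibres, while some return to quiescence. Quiescence is held by Notch signalling and by contact with the niche matrix. Their RNA is known to change while muscle is digested for sorting.

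The control libraries held 20235252 to 25606342 fragments assigned to genes, covering 23762 to 24942 genes each. RNA of the mitochondrial genome made up 3.44% to 4.21% of TPM. Counts differed between every pair of libraries far beyond counting noise, with a chi-square per degree of freedom of 57.7 to 130, so no library had been entered more than once. Control replicate 2 stood apart in its sex-linked genes: the Y-linked genes Ddx3y, Eif2s3y, Uty and Kdm5d together had 14358 fragments there and 2, 1 and 2 in control replicates 5, 7 and 8, whereas Xist, the RNA that silences 1 X chromosome in female cells, had 5 fragments in replicate 2 against 4858, 4989 and 4495. Replicate 2 also had the fewest genes at 1 TPM or more, 14513 against 15660, 15594 and 15477. Replicate 5 stood apart in cell cycle genes. For the counts and list medians that move by over 1.5 times without a library, the value without it is given in the text or in the closing section.

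A gene was called detected when it reached 1 TPM in all 4 libraries, and 13084 of the 57180 genes in the table (22.9%) did so. Leaving out replicate 2 gave 13674. Detected genes held 99.2% of the TPM total, and 10665 of them (81.5%) were protein-coding, beside 1208 pseudogenes and 771 long non-coding RNA genes. A further 5019 genes reached 1 TPM in 1 to 3 libraries. At 10 TPM in every library 6049 genes remained, at 100 TPM 1227 genes and at 1000 TPM 108 genes, and these 108 held 36.2% of the TPM total. Few genes held most of it: 252 carried 50% of the mean TPM and 3679 carried 90%. The 100 genes with the highest mean TPM took 35.8% ± 3.73 of TPM (SD, n = 4), from 31.3% in replicate 5 to 40.3% in replicate 2, and 34.3% over the 3 libraries other than replicate 2. The libraries did not share an even part in the extremes: of the 15390 genes with a mean of 1 TPM or more, 44.6% were highest in replicate 5, 29.2% in replicate 7, 17% in replicate 8 and 9.22% in replicate 2, while 54.8% were lowest in replicate 2, 15.4% in replicate 5, 15.1% in replicate 7 and 14.8% in replicate 8. The median detected gene stood at 12.1 TPM.

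**Figure D1:**
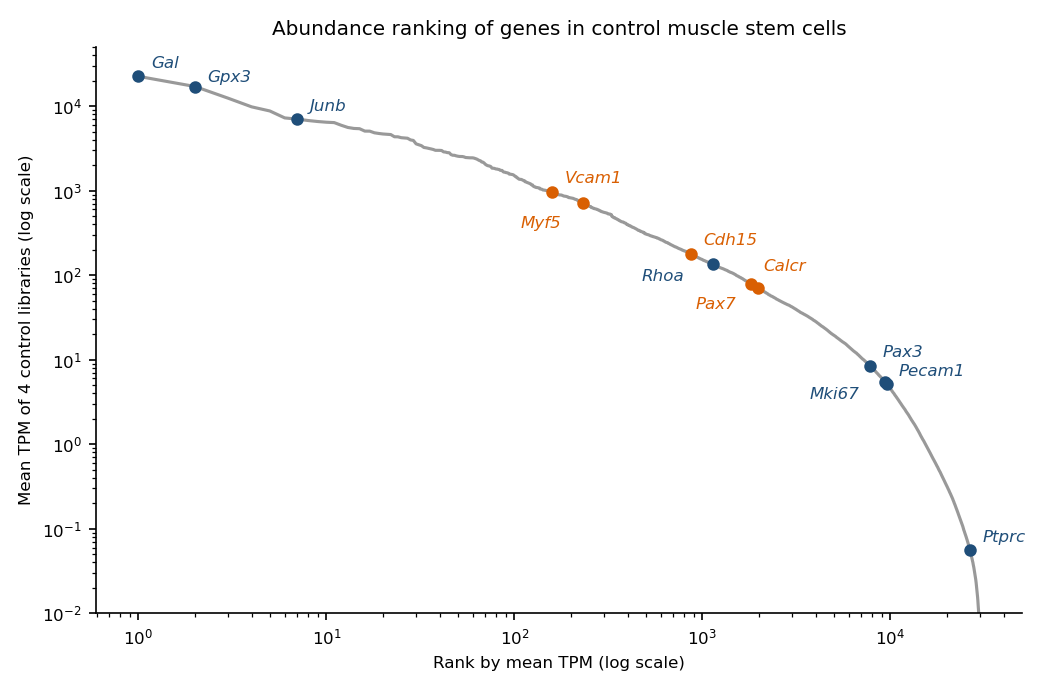
Mean TPM over the 4 control libraries (vertical, log scale) against rank among all genes (horizontal, log scale), with 13 genes marked; the 5 stem cell markers are orange. The markers run from Vcam1 at rank 158 to Pax7 at rank 1985, and the leucocyte gene Ptprc lies near the end of the curve.

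Of the stem cell identity genes described below, Sdc4 alone was among the 20 most abundant. Gal, which encodes the neuropeptide galanin, was the most abundant RNA at 30104, 25226, 14965 and 19607 TPM in replicates 2, 5, 7 and 8. It was highest in replicate 2 and lowest in replicate 7, a 2.01-fold range; ranges and ratios between libraries are taken on TPM + 1 throughout. Gpx3, a secreted glutathione peroxidase, followed at 21000, 10647, 17025 and 19505 TPM, lowest in replicate 5. Hspa5, the chaperone BiP of the endoplasmic reticulum, came after mt-Cytb at 7466, 9808, 14849 and 7071 TPM, with replicate 7 above the rest. Others among the first 20 were the mitochondrial mt-Cytb, mt-Rnr2 and mt-Rnr1, the feedback inhibitor of EGF receptors Errfi1, the transcription factors Junb, Egr1 and Fos, the autophagy receptor Sqstm1, the heparan sulphate proteoglycan Sdc4, the polyubiquitin gene Ubb, the chaperone Hspa8, the elongation factor Eef1a1, Actb, the ribosomal genes Rpl32 and Rpl4, and the chemokine Cxcl1. Cxcl1, which attracts neutrophils, varied most of these, at 8870, 2805, 4650 and 2388 TPM. In each neighbouring pair of this order the ranges over libraries overlapped, so the exact order of the first 20 genes was not resolved by 4 libraries. Gal is encoded on mm39 chromosome 19, 3459915 to 3464544, and its exons share no bases with another annotated gene.

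The label was checked against the markers of muscle stem cells, and all 5 were detected in all 4 libraries. Pax7 (ENSMUSG00000028736.14, mm39 chromosome 4, 139464373 to 139560839), the factor that defines the lineage, stood at 49.6, 71.2, 100 and 60.1 TPM, a mean of 70.2 ± 21.8 (SD, n = 4) and rank 1985. Replicate 7 was highest and replicate 2 lowest, 2.00-fold apart. Myf5 (ENSMUSG00000000435.2, chromosome 10, 107318769 to 107321995), a myogenic factor whose mRNA is stored in quiescent cells, gave 378, 839, 1418 and 244 TPM, a mean of 720 ± 531. It had the widest range of the markers, 5.80-fold between replicates 7 and 8. Calcr (ENSMUSG00000023964.16, chromosome 6, 3685680 to 3764714), the calcitonin receptor of quiescent cells, gave 68.7, 106, 93.0 and 48.8 TPM, a mean of 79.1 ± 25.4. Vcam1 (ENSMUSG00000027962.15, chromosome 3, 115903598 to 115923337), an adhesion molecule often used to sort these cells, gave 1075, 1076, 1091 and 655 TPM, a mean of 974 ± 213. On deposited TPM, replicates 2, 5 and 7 were nearly equal and replicate 8 lay below them. TMM scaling, described below, raises replicate 2 and lowers replicate 5, so that near equality depends on the scaling. Cdh15 (ENSMUSG00000031962.7, chromosome 8, 123574705 to 123594136), M-cadherin, which binds the cell to the fibre, gave 130, 269, 164 and 153 TPM, a mean of 179 ± 61.5, highest in replicate 5. Counting error was small beside these spreads: for Pax7 it was 1.93% and the coefficient of variation between libraries 31.0%. In bulk RNA, fewer cells of a type and less RNA per cell cannot be told apart, for these genes and all others below.

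The wider identity list held 22 genes, and all 22 were detected, where 22.9% of all genes were. The same share is the one to set beside the detected counts of every other list below. Their median level was 178 TPM, and 13 of them exceeded 100 TPM. Sdc4 was the highest at 9340, 5069, 5870 and 5996 TPM, followed by Vcam1 and by Des, the muscle intermediate filament desmin, at 840, 1005, 772 and 1251 TPM. Dag1, the dystroglycan that links cells to laminin, was more than 2 times higher in replicate 5 than in the next library, at 556, 1670, 619 and 744 TPM. The surface proteins Chodl, Ncam1, Itga7 and Cd34 had means of 483, 177, 189 and 148 TPM. The receptor Fgfr4 averaged 300 ± 71.4 TPM and the chemokine receptor Cxcr4 55.1 ± 26.4 TPM. Pax3, the paralogue of Pax7 found in the stem cells of some muscles, was the lowest of the list at 8.23, 9.83, 10.4 and 5.54 TPM. A range of at least 2-fold was seen for 8 of the 20 members with a mean of 10 TPM or more, where 20.3% of all such genes had one.

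**Figure D2:**
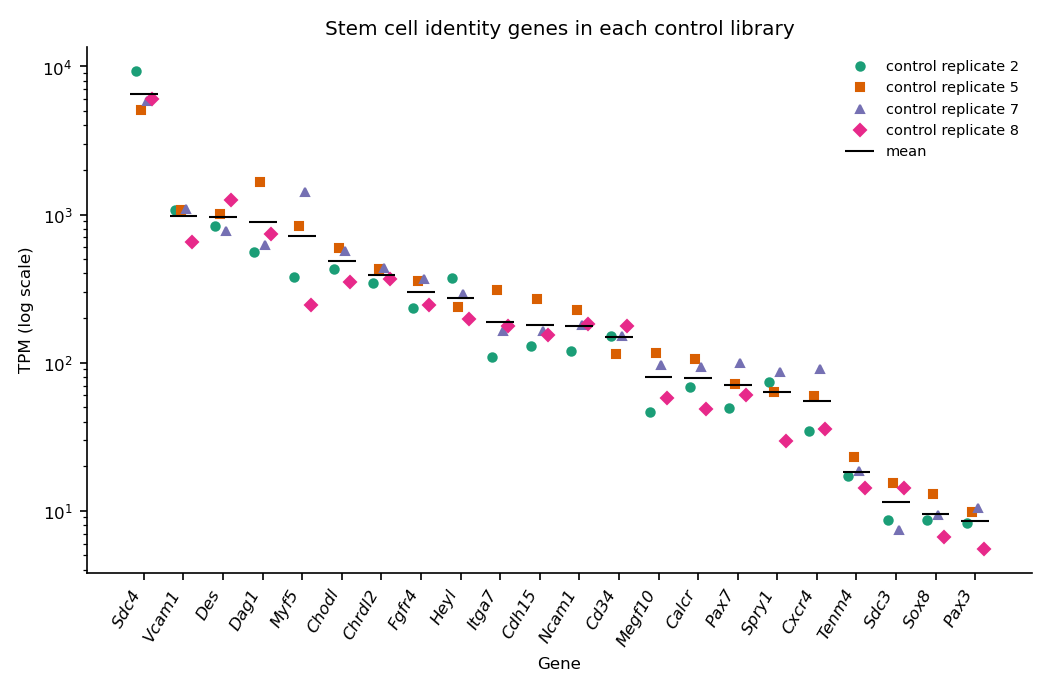
TPM (log scale) of the 22 stem cell identity genes, ordered by mean; each symbol is 1 control library and the bar is the mean of 4. Sdc4 lies at 5069 TPM or more in every library, Myf5 spans 244 to 1418 TPM, and replicate 8 lies apart for Vcam1.

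Genes of quiescence and the Notch pathway were nearly all present. Of 29 genes on this list 28 were detected, where 22.9% of all genes were, with a median of 45.9 TPM. Among the receptors, Notch3 was the highest at 77.4, 77.5, 58.1 and 74.3 TPM, followed by Notch1 at 23.5 ± 5.79 and Notch2 at 12.5 ± 1.40 TPM (SD, n = 4). Notch3 did not overlap with the other receptors, while Notch1 and Notch2 were also apart in these libraries, the lowest Notch1 value being 18.5 and the highest Notch2 value 14.2 TPM. Of the ligands, Jag1 averaged 20.1 and Dll1 17.1 TPM, and Dll4 was the lowest of the list at 0.815, 1.94, 2.73 and 0.819 TPM. Rbpj, the DNA-binding effector of the pathway, stood at 16.8, 23.9, 29.0 and 17.7 TPM. Its target genes were more abundant: Heyl at 372, 237, 290 and 196 TPM, Hes1 at 82.9, 125, 113 and 87.6 TPM, and Hey1 at 38.4, 51.7, 31.0 and 32.0 TPM. Col5a1 and Col5a3, chains of collagen V, which is known as a Notch target and Calcr ligand in these cells, were the 2 members with the largest spread; Col5a3 gave 56.2, 404, 91.8 and 114 TPM, with replicate 5 above the others 3.53-fold or more on TPM + 1. The FoxO factors were low, with Foxo3 at 12.7, Foxo4 at 7.78 and Foxo1 at 6.10 TPM on average.

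Genes of myogenic activation and differentiation spanned a wide range. Myod1, the factor switched on at activation, stood at 2913, 2991, 1818 and 2058 TPM, a mean of 2445 ± 595 and rank 59, far above Pax7 in every library. Myog, which starts terminal differentiation, stood at 5.29, 124, 11.6 and 13.6 TPM: replicate 5 was 8.52-fold above the next library on TPM + 1 and the other 3 were low. Of the fusion genes, Mymk was at 15.5 TPM in replicate 5 and 3.32 TPM or less elsewhere, and Mymx at 0.266, 0.647, 0 and 0 TPM. Myh3, embryonic myosin, was at 1.24 TPM in replicate 5 and 0.262 TPM or less elsewhere. Cdkn1a, the cell cycle inhibitor p21, was high and even at 1085, 843, 981 and 1134 TPM. Acta1, skeletal actin, was the third highest of the list at 50.6, 594, 189 and 74.2 TPM, highest in replicate 5 too. In all, 16 of the 20 genes were detected, and 14 of the 20 were highest in replicate 5, where 44.6% of all genes with a mean of 1 TPM or more were. After TMM scaling, which is described below, this was 11 of 20 against 27.2%.

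Immediate early and dissociation response genes had the highest median of the 24 lists, although ribosomal protein genes took a larger share of TPM. All 31 were detected, with a median of 1045 TPM, and together they took 5.84% ± 1.24 of TPM (SD, n = 4; 4.25% in replicate 5 to 7.06% in replicate 7). The AP-1 subunit Junb led the list, at 7544, 4327, 10560 and 5615 TPM. Of the other AP-1 subunits, Fos gave 5541, 4262, 8511 and 3446 TPM, Fosb a mean of 2425 TPM and Jun a mean of 2052 TPM. Egr1 gave 7338, 4710, 8583 and 5155 TPM. Replicate 7 was the highest library for 16 of the 31 genes (29.2% of all genes) and replicate 5 the lowest for 16 (15.4% of all genes). The heat shock genes Hspa1a and Hspa1b had another order, both highest in replicate 8. Hspa1a gave 2525, 1647, 1295 and 5965 TPM and Hspa1b 261, 199, 169 and 659 TPM. The related chaperone Hspa8 was highest in replicate 2, at 7417 TPM. The brakes on these signals were also abundant, with the RNA-decay factor Zfp36 at 4332 TPM, the NF-κB inhibitor Nfkbia at 3115 TPM, the phosphatase Dusp1 at 1845 TPM and Atf3 at 1365 TPM on average. No tissue fixed before isolation was analysed here, so the part of dissociation in these levels was not tested.

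Cell cycle genes separated replicate 5 from the other 3 libraries. Of 36 genes on the list, 31 were highest in replicate 5, where 44.6% of all genes with a mean of 1 TPM or more were, and with TMM scaling it was 31 against 27.2%. In all 4 libraries 24 were detected, and 27 without replicate 2; the list's median was 9.98 TPM, and 4.10 TPM without replicate 5. The mean of log2(TPM + 1) over the list was 4.86 in replicate 5 and 2.65, 2.96 and 2.94 in replicates 2, 7 and 8. Ccnb2, the mitotic cyclin B2, stood at 2.41, 95.3, 1.96 and 5.15 TPM. Top2a, the topoisomerase that untangles chromosomes in mitosis, stood at 0.651, 40.4, 1.14 and 1.21 TPM, and the proliferation marker Mki67 at 0.0949, 20.5, 0.224 and 0.856 TPM. Cdc20, the activator of the anaphase-promoting complex, stood at 4.82, 53.0, 5.55 and 6.38 TPM. In each of these replicate 5 was high alone, and outside it several mitotic genes lay under 1 TPM: Cdk1 at 0.963 or less, Ccna2 at 0.914 or less and Plk1 at 0.130 or less. G1 and replication genes were present in every library, with Ccnd1 at 73.0, 258, 91.7 and 104 TPM, Cdk4 at 54.8, 129, 102 and 80.1 TPM and Pcna, the replication clamp, at 126, 101, 126 and 102 TPM. Pcna was 1 of the 5 members not highest in replicate 5.

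The promoters of 3 of these mitotic genes are shown because the genes shared the same pattern over the libraries, and that of Fos is shown as a gene abundant in all 4. Each line gives the 150 bases before the annotated start, on the gene's strand, from RefSeq on GRCm38.p6, an older build than that of the counts. Capitals mark CCAAT or its reverse complement ATTGG and TTTGAA or its reverse complement TTCAAA in the mitotic genes, and TATAAA in Fos.
Ccnb2: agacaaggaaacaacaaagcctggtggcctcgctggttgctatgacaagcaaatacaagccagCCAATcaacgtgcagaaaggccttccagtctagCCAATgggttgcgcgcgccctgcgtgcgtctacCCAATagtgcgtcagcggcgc
Top2a: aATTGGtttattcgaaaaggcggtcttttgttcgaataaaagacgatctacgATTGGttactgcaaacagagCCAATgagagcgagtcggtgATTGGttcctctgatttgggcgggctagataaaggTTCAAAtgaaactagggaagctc
Cdc20: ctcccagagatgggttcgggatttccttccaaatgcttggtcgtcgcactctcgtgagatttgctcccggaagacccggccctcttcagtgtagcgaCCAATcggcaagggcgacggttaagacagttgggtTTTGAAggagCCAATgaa
Fos: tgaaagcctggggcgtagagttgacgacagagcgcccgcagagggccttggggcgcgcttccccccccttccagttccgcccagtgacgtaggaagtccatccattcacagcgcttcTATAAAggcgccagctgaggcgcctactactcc

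The Ccnb2 promoter (chr9:70421555-70421704, minus strand) held CCAAT 3 times, starting 87, 54 and 21 bases before the start. The Top2a promoter (chr11:99024190-99024339, minus strand) held CCAAT or its reverse complement 4 times and TTCAAA 23 bases before the start. The Cdc20 promoter (chr4:118437344-118437493, minus strand) held CCAAT 53 and 8 bases and TTTGAA 18 bases before the start. In Fos (chr12:85473740-85473889, plus strand) TATAAA lay 33 bases before the start. For 8 motifs, either strand of the 250 bases before the start was searched. CCAAT occurred in 37.5%, TTTGAA in 18.3% and TATAAA in 14.3% of the 27025 genes with a promoter entry. A gene counted where any of its entries matched. These matches describe letters in a window. Only 28 of the 36 cell cycle genes had an entry, under 80%, so a count of motifs over the list is void.

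Of 17 inhibitors of the cell cycle 16 were detected, with a median of 24.7 TPM and 6 above 100 TPM. Btg2, an antiproliferative immediate early gene, stood at 1735, 943, 2951 and 1326 TPM and Cdkn1a at 1011 ± 129 TPM (SD, n = 4), while Btg1 averaged 421 TPM, Trp53 191 TPM and Cdkn1b, which encodes p27, 23.2 TPM. Cdkn1c, which encodes p57 and is known from differentiating myoblasts, gave 12.9, 45.7, 11.8 and 28.3 TPM, highest in replicate 5. Cdkn2a, the senescence locus, was low at 0.349, 3.12, 2.56 and 2.33 TPM.

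Nuclear genes of oxidative phosphorylation had the lowest median coefficient of variation of the 24 lists. The 45 were all detected, with a median of 154 TPM, and 0 of them had a 2-fold range, where 20.3% of all genes with a mean of 10 TPM or more did. Their coefficient of variation had a median of 10.2%, against 21.4% over those genes. Cox4i1, a subunit of complex IV, stood at 1256, 1184, 1210 and 1348 TPM, and Ndufb9, a subunit of complex I, at 117, 121, 118 and 119 TPM. The 13 protein genes of mitochondrial DNA took 2.37% ± 0.200 of TPM (SD, n = 4), and mt-Cytb led them at 10956, 12396, 12428 and 13802 TPM, while mt-Nd4l averaged 12.4 TPM. In glycolysis 19 of 20 genes were detected, led by Aldoa at 890 ± 80.1 TPM, Pkm at 818 ± 83.5 TPM and Ldha at 609 ± 37.7 TPM. Its widest members were the muscle isoforms Pgam2, at 4.87, 45.3, 19.2 and 4.44 TPM, and Eno3, at 17.7, 70.9, 52.8 and 26.5 TPM, both highest in replicate 5.

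Translation genes were abundant in every library. All 79 cytosolic ribosomal protein genes were detected, with a median of 817 TPM, and together they took 8.86% ± 1.47 of TPM (SD, n = 4). Replicate 5 was the lowest library for 74 of the 79 (15.4% of all genes), with a share of 6.86% against 8.68%, 9.77% and 10.1% in replicates 2, 7 and 8. Rpl32 gave 4990, 3795, 5791 and 5670 TPM. Exceptions included Rplp0, at 4016, 4455, 3783 and 6299 TPM, and Rps10, the lowest of the list, at 5.37, 10.6, 6.33 and 7.08 TPM; ribosomal genes have many processed copies in the genome, and fragments that map to several copies were not counted, so their single levels are uncertain. Among translation factors 22 of 23 were detected, led by Eef1a1 at 6379 ± 694 TPM and by Eif5a at 4197 ± 844 TPM. Eef1a2, the isoform of mature muscle and neurons, was at 0.249 TPM on average. Eif4ebp1, an inhibitor of cap-dependent initiation, was the widest at 109, 249, 379 and 149 TPM.

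Splicing factors were all detected, 33 of 33, with a median of 171 TPM and a median coefficient of variation of 13.4%. Srsf7 led at 1011, 837, 1237 and 979 TPM, followed by Hnrnpk at 1006 ± 84.3 TPM and Hnrnpa2b1 at 896 ± 68.8 TPM (SD, n = 4). The muscle splicing regulators Mbnl1 and Rbfox2 were the 2 widest, Mbnl1 at 55.7, 110, 108 and 74.4 TPM and Rbfox2 at 44.8, 91.7, 42.7 and 54.5 TPM. Of 27 genes for DNA methylation and chromatin 25 were detected, with a median of 20.2 TPM. The replacement histone H3f3b led at 2999 ± 597 TPM. Dnmt1, the maintenance methyltransferase, averaged 9.65 TPM, Dnmt3b 2.67 TPM and the demethylase Tet2 15.9 TPM. Uhrf1, which guides Dnmt1 to newly copied DNA, was the widest at 0.641, 15.1, 2.49 and 1.35 TPM, highest in replicate 5 like the mitotic genes.

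Receptors and their feedback genes were all detected, 27 of 27, with a median of 47.6 TPM. The inhibitor of DNA binding Id3 led at 2583, 1070, 2396 and 1234 TPM and Socs3, which limits cytokine signalling, followed at 787, 413, 770 and 637 TPM. Met, the receptor of hepatocyte growth factor, gave 30.8, 72.4, 46.7 and 40.4 TPM. Spry1, a brake on FGF signalling tied to quiescence, gave 74.3, 63.2, 86.0 and 29.5 TPM, lowest in replicate 8. The receptors Il6st, Osmr and Lifr of the interleukin-6 family stood at 180, 61.6 and 25.7 TPM on average.

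Genes of RhoA signalling and actomyosin, the pathway at issue in the study, were detected for 31 of 33 members of the list (22.9% of all genes). A 2-fold range was seen for 3 of the 24 with a mean of 10 TPM or more, where 20.3% of all such genes had one. Rhoa stood at 132, 148, 121 and 136 TPM, a mean of 134 ± 10.9 (SD, n = 4). Its relatives Rhoc and Rhob averaged 237 and 183 TPM and Cdc42 943 TPM, so Rhoa was the lowest of Rhoa, Rhob and Rhoc by mean, while its range overlapped that of Rhob, 130 to 241 TPM, and not that of Rhoc, 204 to 256 TPM. The kinases Rock2 and Rock1 averaged 33.8 and 16.1 TPM and the formin Diaph1 18.3 TPM. The coactivators Yap1 and Wwtr1 (TAZ) averaged 14.8 and 178 TPM and did not overlap. Srf gave 4.57, 8.27, 12.2 and 5.06 TPM and its coactivators Mrtfa and Mrtfb 8.85 and 3.71 TPM on average. Myl9, a myosin light chain of smooth muscle, was the widest at 176, 175, 229 and 574 TPM, highest in replicate 8.

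Niche matrix and adhesion genes also set replicate 5 apart. Of 31 genes 28 were detected, and 25 were highest in replicate 5, where 44.6% of all genes were. Sparc, a collagen-binding matrix protein, gave 633, 2776, 643 and 977 TPM, Col4a1 of basement membranes 148, 486, 124 and 155 TPM, and Lamc1, a laminin chain, 28.9, 98.0, 29.2 and 38.5 TPM. Replicate 5 was above the other 3 in each. Dcn, the proteoglycan decorin, went the other way, at 903, 176, 271 and 730 TPM. Itgb1, the shared integrin β1 chain, was even by comparison at 568, 1010, 586 and 719 TPM, and Itga7, its partner on muscle cells, gave 109, 308, 163 and 176 TPM.

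**Figure D3:**
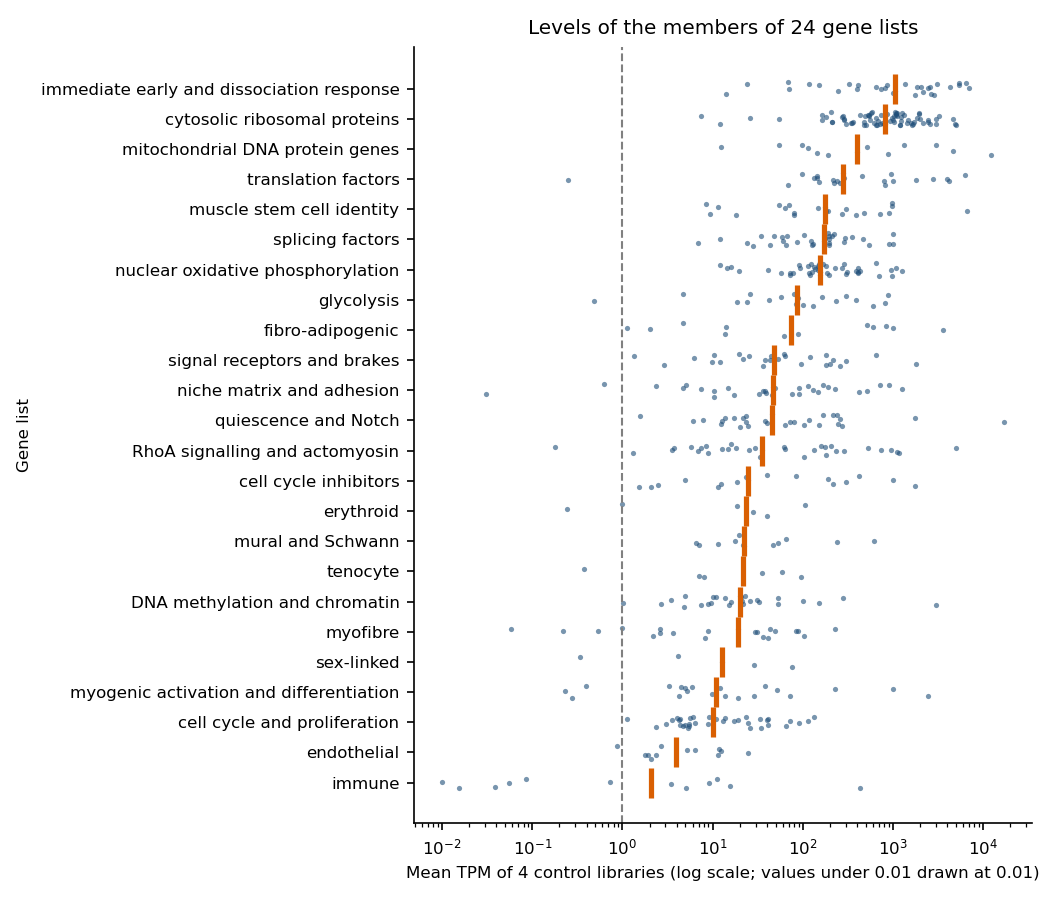
Mean TPM over the 4 control libraries (log scale) of the members of 24 gene lists; each point is a gene, the orange bar is the list's median and the dashed line marks 1 TPM. Immediate early and ribosomal genes lie highest, with medians of 1045 and 817 TPM, and endothelial and immune genes lowest, with medians of 3.92 and 2.08 TPM.

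Markers of other cell types were measured as a check on the sort. Of 12 immune genes 4 were detected, a share not below the 22.9% of all genes; the pan-leucocyte gene Ptprc was at 0.0783 TPM or less, the macrophage gene Adgre1 at 0 in 3 libraries and 0.154 TPM in replicate 5, the T cell gene Cd3e at 0 in 3 libraries and Itgam at 0 in all 4. Itgam shares 68.7% of its exon bases with other annotated genes, and fragments in shared bases are not counted. Lyz2, a lysozyme of myeloid cells, nevertheless stood at 297, 309, 282 and 817 TPM. Other members of the list were not near 0 either. S100a8, Cd74 and S100a9 averaged 15.6, 11.1 and 5.05 TPM. Without 1 library these means fell to 3.55, 5.67 and 1.06 TPM. Endothelial genes were low, with a median of 3.92 TPM: Pecam1 gave 1.05, 7.50, 8.63 and 3.41 TPM and Cdh5 5.45, 8.58, 15.3 and 17.7 TPM. All 12 were lowest in replicate 2, where 54.8% of all genes were, and with TMM scaling all 12 against 27.4%. In all 4 libraries 6 of the 12 were detected, a share above the 22.9% of all genes, and 11 without replicate 2. The haemoglobin genes were highest in replicate 7, and the median of the 6 erythroid genes was 23.4 TPM, or 5.89 TPM without it, with Hbb-bs at 30.6, 4.11, 343 and 46.3 TPM and Hba-a1 at 14.1, 2.05, 125 and 17.3 TPM; the paralogues Hba-a1 and Hba-a2 are near-identical, so their split is uncertain.

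Genes of connective tissue and fibres were present at higher levels. Of 12 fibro-adipogenic genes 10 were detected, with a median of 74.6 TPM and a summed level of 4100 to 9290 TPM, of which Gsn, the actin-severing gelsolin, made up 3574 TPM on average; the defining receptor Pdgfra stood at 3.51, 0.912, 0.923 and 2.68 TPM and Pi16 at 1.13 TPM on average. Col1a1 gave 164, 1717, 173 and 372 TPM and Col3a1 395, 2485, 428 and 691 TPM, both highest in replicate 5. The list as a whole had no such order, with 5 of 12 members highest (44.6% of all genes) and 4 lowest (15.4% of all genes) in replicate 5. Myofibre genes were highest in replicate 5 for 17 of 21 (44.6% of all genes), with a median of 19.3 TPM, or 11.5 TPM without it: their summed level was 358, 1551, 719 and 500 TPM, Mylpf, a fast myosin light chain, gave 11.7, 107, 44.8 and 12.4 TPM and the fast myosin Myh4 0.522, 3.95, 4.47 and 1.45 TPM. Replicate 5 was thus the highest library for most members of the cell cycle, niche matrix and myofibre lists, and the part of other cell types in this was not tested. All 12 mural and Schwann genes were detected, with a median of 22.2 TPM, and 9 of the 12 were highest in replicate 8 (17% of all genes). Among these was Cspg4 of pericytes at 5.07, 7.17, 4.55 and 11.4 TPM. The summed level of the list, 693, 1474, 989 and 1381 TPM, was highest in replicate 5 instead. Its most abundant members were Acta2 and Rgs5, at 620 and 242 TPM on average. Tenocyte genes were lowest in replicate 7 for 4 of 6 (15.1% of all genes), with Tnmd at 55.8, 44.3, 11.5 and 29.1 TPM, while Scx, the factor that defines tendon cells, stood at 0.561 TPM or less.

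**Figure D4:**
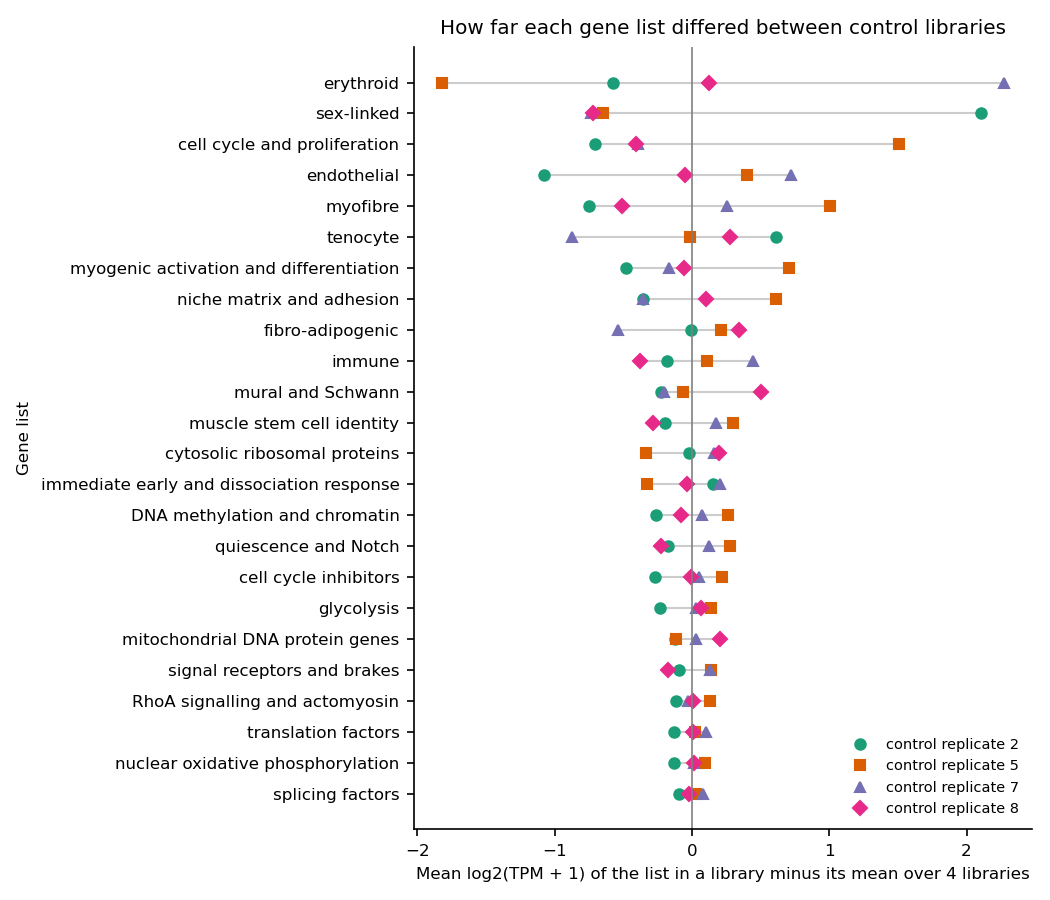
For each gene list, the mean of log2(TPM + 1) in a control library minus the mean over the 4 libraries (horizontal); each symbol is a library and lists are ordered by range. Erythroid, sex-linked, cell cycle, endothelial and myofibre lists separate libraries most; with TMM, another scaling, some lists of smaller range change their order, among them the immediate early, quiescence and oxidative phosphorylation lists.

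A second scaling was used to see which of these orders hold. TMM, edgeR's scaling factor, assumes that most genes do not differ; relative to the deposited values it moved the median gene by 0.25 in replicate 2, -0.21 in replicate 5, -0.095 in replicate 7 and 0.017 in replicate 8 (log2). After it the extremes were spread more evenly over all genes with a mean of 1 TPM or more: 26.3%, 27.2%, 25.8% and 20.8% were highest and 27.4%, 29.5%, 23.5% and 19.5% lowest in replicates 2, 5, 7 and 8. Replicate 5 was still highest for 31 of 36 cell cycle, 22 of 31 niche matrix and 16 of 21 myofibre genes and lowest for 76 of 79 ribosomal genes. Replicate 2 was still lowest for all 12 endothelial genes, replicate 7 highest for all 6 erythroid genes and replicate 8 highest for 9 of 12 mural and Schwann genes. Other orders flipped. Among them, the immediate early list was then highest in replicate 2, with 19 of 31 genes, and the nuclear oxidative phosphorylation list was lowest in replicate 5, not replicate 2. The identity list gave 7.29, 7.32, 7.32 and 6.97 with TMM and 7.04, 7.53, 7.41 and 6.95 without, so replicate 8 was lowest either way and the other 3 were close together with TMM.

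Spread between libraries was then described over all 7207 genes with a mean of 10 TPM or more. The median SD of log2(TPM + 1) was 0.30, and the median ratio of highest to lowest library 1.59. A range of at least 4-fold on TPM + 1 was found for 193 genes (2.68%), and for 112 without replicate 2 and 118 without replicate 5. The common biological coefficient of variation, edgeR's estimate of the spread beyond counting noise, was 29.0% over 13793 genes. Correlations of log2 levels between pairs of libraries were 0.941 to 0.966 over 15390 genes, a description over genes that share their libraries.

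**Figure D5:**
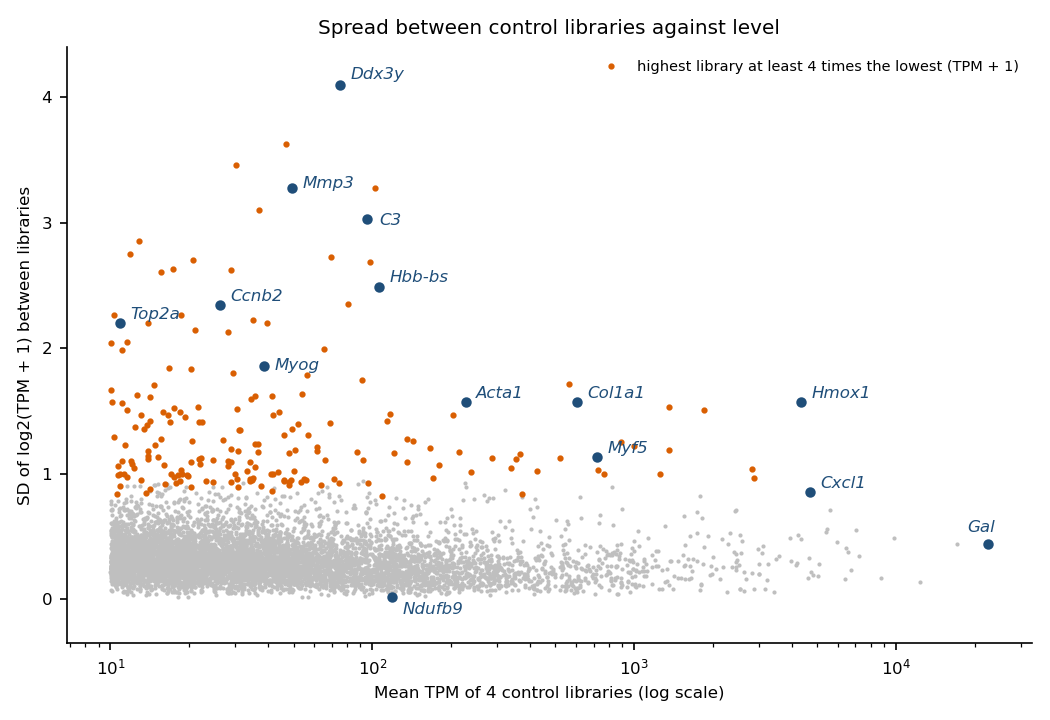
SD of log2(TPM + 1) between the 4 control libraries (vertical) against mean TPM (horizontal, log scale) for 7207 genes with a mean of at least 10 TPM; the 193 genes with a range of at least 4-fold are orange and 14 genes are named. Ddx3y is the widest, at an SD of 4.10, and Ndufb9 the most even of the named genes, at 0.02.

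The 10 widest genes were Ddx3y, Gm13394, Dcpp3, Ccl21a, Mmp3, Cxcl13, C3, Eif2s3y, Dcpp1 and Cxcl5, and 9 of them were highest in replicate 2. None of these 9 would have passed the mean of 10 TPM without replicate 2, so the filter admits them through the library where they are high, and their number says nothing about that library against the others. Ddx3y gave 300 TPM in replicate 2 and at most 0.0639 TPM elsewhere. Of these 9, complement C3 gave 357, 2.55, 3.99 and 17.5 TPM and the matrix protease Mmp3 187, 1.75, 0 and 7.89 TPM. The chemokine Cxcl5 gave 264, 6.69, 4.76 and 4.16 TPM. That all 3 were highest in replicate 2 follows from how they were picked. Ptgs2, the inducible cyclooxygenase, and the cytokine Csf3 were added after their values were seen; Ptgs2 gave 360, 5.55, 6.47 and 21.2 TPM and Csf3 273, 33.0, 12.7 and 5.28 TPM. In total 56 genes (0.777%) were at least 2 times higher in replicate 2 than in each other library on TPM + 1, and 29 of them at least 4 times; 2 were Y-linked. In replicate 2 42 genes (0.583%) were lower than in every other library by the same measure. The mean of 10 TPM favours genes that are high in 1 library: the other 3 libraries averaged 10 TPM or more for 34 of the 56 genes high in replicate 2, 72 of 94 for replicate 5, 10 of 17 for replicate 7 and 30 of 36 for replicate 8, so counts of genes high and low alone cannot be set against each other. Those low in replicate 2 included Agtr2, the angiotensin receptor of type 2, named after its values were seen, at 1.56, 19.4, 13.9 and 14.8 TPM.

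Replicate 5 was high alone for 94 genes (1.3%) and low alone for 30 (0.416%). Those high included 10 of 25 niche matrix, 8 of 18 cell cycle, 5 of 11 myofibre and 3 of 9 fibro-adipogenic list genes. Each total counts members with a mean of 10 TPM or more, as only these could be called. Other lists gave 2 quiescence and Notch, 2 myogenic, 1 identity and 1 glycolysis gene, and a gene can be on more than 1 list. The largest ratios were those of Pbk, a mitotic kinase, at 0.686, 79.0, 0.419 and 2.64 TPM, of Top2a, Ccnb2 and Myog, and of the unnamed gene ENSMUSG00000120992.1 at 2.82, 123, 6.08 and 7.40 TPM. Igf1 and Pthlh, 2 secreted factors added after their values were seen, gave 7.15, 64.1, 7.80 and 10.6 TPM and 941, 3156, 922 and 425 TPM.

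Replicate 7 was high alone for 17 genes (0.236%), led by Gm11942 at 16.2, 8.19, 216 and 20.8 TPM and by the haemoglobin genes Hbb-bs, Hba-a1, Hbb-bt and Hba-a2, and low alone for 22 (0.305%). Those low included Hmox1, haem oxygenase 1, at 6954, 4030, 644 and 5727 TPM, Cryab, the small heat shock protein αB-crystallin, at 3099, 1351, 311 and 2600 TPM, and Gclm, a subunit of the enzyme that limits glutathione synthesis, at 180, 117, 30.1 and 158 TPM; these were named after their values were seen. Hmox1 had rank 23, so a gene among the most abundant in 3 libraries was 6.25-fold lower on TPM + 1 in the remaining 1. Replicate 7 also held the highest Hspa5, and Nupr1, a stress response gene named after its values were seen, at 151, 163, 532 and 223 TPM.

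Replicate 8 was high alone for 36 genes (0.5%), 1 of them at least 4 times, and low alone for 11 (0.153%). Gjb2, a gap junction protein, gave 16.6, 5.59, 22.1 and 98.1 TPM, Smoc2, a matrix calcium-binding protein, 27.1, 19.3, 25.7 and 95.1 TPM, and Mgp, matrix Gla protein, 24.4, 26.5, 31.2 and 101 TPM. The secreted Wnt antagonist Sfrp5, named after its values were seen, gave 232, 120, 281 and 786 TPM. Low alone there was the chemokine Cxcl2, also named after its values were seen, at 614, 370, 362 and 151 TPM.

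The 10 most even genes with a mean of 50 TPM or more were Ndufb9, Apba3, Icam1, Map1lc3b, Cox6c, Syngr2, Dda1, Abcf2, Uqcrh and Ginm1. Of these, Ndufb9, Cox6c and Uqcrh are subunits of the respiratory chain, and the share of such genes at that level was not counted. Icam1, an adhesion molecule, stood at 56.7, 56.9, 57.5 and 55.5 TPM, and Map1lc3b, the autophagy protein LC3B, at 163, 155, 160 and 159 TPM. For Ndufb9 the coefficient of variation of 1.27% was below the 3.41% that counting alone gives, so an agreement this close goes beyond what the counts can resolve.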

How the data were processed

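RNA of 4 control libraries was analysed; the labels name Trizol extraction and a template-switching low-input kit. The authors deposited fragment counts and TPM per gene. Per the file headers, counts came from featureCounts 1.6.4 on STAR alignments to mm39 with GENCODE release 34, in paired-end mode with no strand option and neither multi-mapping nor multi-overlap option, so fragments shared by gene copies or overlapping genes were lost. Of 10 alignment files in that command, 8 are in the deposited table, and its 4 controls were analysed here. TPM recomputed from the deposited counts differed by at most 2e-14 (relative).

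Symbols for 51884 genes came from GENCODE release 21 identifiers. The pseudocount on TPM was 1. Dispersion used edgeR 4.0.16 (R 4.3.3) with TMM and filterByExpr, tested on simulated data; DESeq2 1.42.0 gave an alternative. With 1 group, no groups were tested for difference, and single libraries were only checked against Dixon's critical value, as given below. Named genes are the 5 markers, the 20 most abundant, each list's 3 highest, lowest and 2 widest members, the 10 widest and 10 most even genes, up to 5 per library standing apart, and list members where their role orders the account. The control libraries and lists were chosen with earlier results of these data known. Alternatives covered thresholds, pseudocount, scaling, filters and leaving out each library. Some list members and abundant genes are not reported here.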

Additional observations from a re-analysis of the deposited data

Results flagged for a closer look

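Among 59 measures checked in the 4 control libraries, 6 had 1 library whose gap to the next, divided by the range, passed Dixon's 95% critical value, where chance gives about 1 in 20, or 2.95. Control replicate 2 stood apart in genes at 1 TPM or more (14513, next 15477), in fragments of 4 Y-linked genes (14358, next 2), in Xist fragments (5, next 4495) and in the mean log2(TPM + 1) of the sex-linked list (3.88, next 1.12); the last 3 measures share their genes and are not separate. The labels do not give the sex of the mice. Control replicate 5 stood apart in the cell cycle list, at a mean log2(TPM + 1) of 4.86 with 2.96 in the next library. It was also the highest library for 25 of 31 niche matrix and 17 of 21 myofibre genes, against 44.6% of all genes. With TMM scaling these counts were 22 of 31 and 16 of 21, against 27.2%. Control replicate 8 stood apart in Vcam1, at 654.68 TPM with 1075 TPM in the next library. This flag rests on deposited TPM, where replicates 2, 5 and 7 were nearly equal. TMM scaling moves replicates 2 and 5 apart, and the flag was not checked with it.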

How the results depend on the processing

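The 13084 detected genes, the 22 identity genes and the share of TPM in the 100 most abundant genes stayed within the spread or 1.5 times their value under each alternative run. The count of genes with a 4-fold range, 193, was 112 to 167 when 1 library was left out, lowest without control replicate 2, and depended on its thresholds: 63 at a mean of at least 50 TPM, 753 at a mean of at least 1 TPM and 1462 at a 2-fold range. The median SD of log2(TPM + 1) was 0.25 to 0.33 when 1 library was left out, 0.24 with TMM scaling and 0.047 with no filter on level, where genes near 0 enter. The biological coefficient of variation was 26.6% to 30.8% when 1 library was left out, 37.3% with no filter beyond a count above 0 and 24.1% by DESeq2, which is a median over genes. Of 190 named genes, 60 had a mean that fell by more than 1.5 times without 1 library; TMM scaling moved 0 by their spread. Without 1 library the medians of 5 lists fell by more than 1.5 times: cell cycle to 4.10 TPM and myofibre to 11.5 TPM without replicate 5, immune to 0.890 TPM and erythroid to 5.89 TPM without replicate 7, and sex-linked to 0.0098 TPM without replicate 2. Genes under 1 TPM rest on few fragments. No paired analysis was possible because 1 group enters, and no test between groups was made.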
